A study of Arabidopsis thaliana with 28 samples.

Results

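In a time series of a short drying treatment, shoots labelled 24 h were compared with shoots labelled 0.25 h, at nearly the same time of day on consecutive days. The 24 h group and the 0.25 h group held 2 ATH1 arrays each, chosen by the tissue and time in their labels, so the comparison rests on 4 of the 28 arrays of the series. All plants were Arabidopsis thaliana of the accession Col-0, with no transgene or mutation named in the labels, grown on Murashige and Skoog medium in a growth room with 16 h days at 24 degrees and 50% humidity. At 16 days, after 3 h of light, they stood in the dry air of a clean bench for 15 min and lost 10% of their fresh weight. Until harvest they then stayed in a climate chamber, in vessels that were closed. Both groups were therefore dried, and the 24 h plants were also a day older. It is not taken as known here whether the times count from the start or the end of the 15 min. The 0.25 h plants may thus have spent little or no time enclosed. No untreated arrays were analysed here, so a change between the groups cannot be assigned to drying, recovery, enclosure or age. ATH1 is a short-oligonucleotide array that reports 1 signal per probe set, and the values are MAS5 signals on a linear scale.

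When a leaf loses water quickly, cells first switch on a rapid set of genes shared by many stresses and by wounding or touch, among them zinc finger and WRKY transcription factors and calcium-binding proteins. This rapid set is transient, and in Arabidopsis shoots it gives way to slower programmes that include abscisic acid dependent protectants such as dehydrins, osmolyte synthesis and jasmonate-dependent defence proteins. Many leaf transcripts also follow the circadian clock and the light period, so times after drying that fall at different clock times also differ in that rhythm, which the matched times here largely share.

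The replicates of each group resembled each other more than the groups did. Across probe sets the log2 signals of the 24 h arrays correlated at 0.979 and those of the 0.25 h arrays at 0.982, while the 4 pairs of a 24 h with a 0.25 h array gave 0.955 to 0.961. The median signal of the 4 arrays lay between 37.3 and 40.3, and MAS5 had scaled every array to the same trimmed mean of 100.01, so a shift shared by most transcripts cannot be seen. The labelled tissue was borne out by its markers: all 7 photosynthesis genes measured were brighter on every shoot array than on every root array, with summed signals of 37537 and 41777 at 24 h and 35803 and 37673 at 0.25 h in shoots, against 472 to 552 in roots. None of the 7 was called changed. Of 5 root markers, 4 were brighter on every root array, and the exception, SWEET2, was brighter in shoots and is the one root marker that was called. The other 4 summed to 1147 and 894 in shoots at 24 h, against 620 and 560 at 0.25 h, and most of this was PYK10, a beta-glucosidase abundant in roots, at 1103 and 850 at 24 h, against 582 and 520 at 0.25 h (log2 0.81, adjusted p = 0.071). The summed root-marker signal was thus higher on both 24 h arrays, and its part in the results was not tested. With SWEET2 the 5 summed to 1353 and 1088 at 24 h, against 1015 and 1011 at 0.25 h, and to 3255 to 3664 in roots. Elsewhere in the series the shoot arrays of 0.5 h and 1 h went against their labels: replicate 1 of 0.5 h matched replicate 2 of 1 h best, and replicate 2 of 0.5 h matched replicate 1 of 1 h. Those 4 arrays enter the filter and the shared estimate of spread, and counts of calls without them are given below. Signals given for 0.5 h and 1 h, in the text and in the plots over time, follow the labels and carry this doubt.

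Of 18190 probe sets tested, 980 rose at 24 h and 1025 fell, which is 5.39% and 5.63% (limma, Benjamini-Hochberg adjusted p under 0.05 over all tested probe sets). A total of 4455 had an unadjusted p under that level. The called rises had a median log2 change of 0.77 and the called falls of -0.68, against 0.07 over all probe sets, and 328 rises and 248 falls exceeded 1 on the log2 scale. When the 4 shoot arrays that go against their labels were omitted, the fit called 1435 higher and 1302 lower and kept 2004 of the 2005 calls. Single arrays mattered more. Without 24 h replicate 2 only 321 were higher and 333 lower, without 24 h replicate 1 the counts were 591 and 966, without 0.25 h replicate 1 they were 501 and 447, and without 0.25 h replicate 2 they were 602 and 634. No call turned its sign in any of these fits, and 197 rises and 237 falls were called whichever of the 4 arrays was left out. The p-values measure the spread between replicate arrays over all 14 groups of tissue and time, not that of the 4 arrays alone. The labels do not say that the replicates were separate plants or batches of plants, so this spread may be technical. In whole shoots, fewer cells of a type and less RNA per cell cannot be told apart.

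Gene names could be given to 10017 genes with a probe set of their own, of which 468 were called higher (4.67%) and 505 lower (5.04%). These shares are the background for each count of list members called below. Only 19 of the 50 largest called rises and 16 of the 50 largest called falls among probe sets have a single gene. Most of the strongest changes therefore carry no name here. The 15 largest rises and 15 largest falls among genes that reached a mean signal of 50 in the higher group are shown by array. Of these 30 genes, 10 rises and 13 falls have only a locus code in the annotation used, and no role is given for them. The pair of 24 h arrays did not overlap the pair of 0.25 h arrays in any of the 30, which the choice of genes required. Over all probe sets both 24 h arrays lay above both 0.25 h arrays in 33.4% and below them in 22.7%, and over all genes in 33% and 22.1%.

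**Figure D1:**
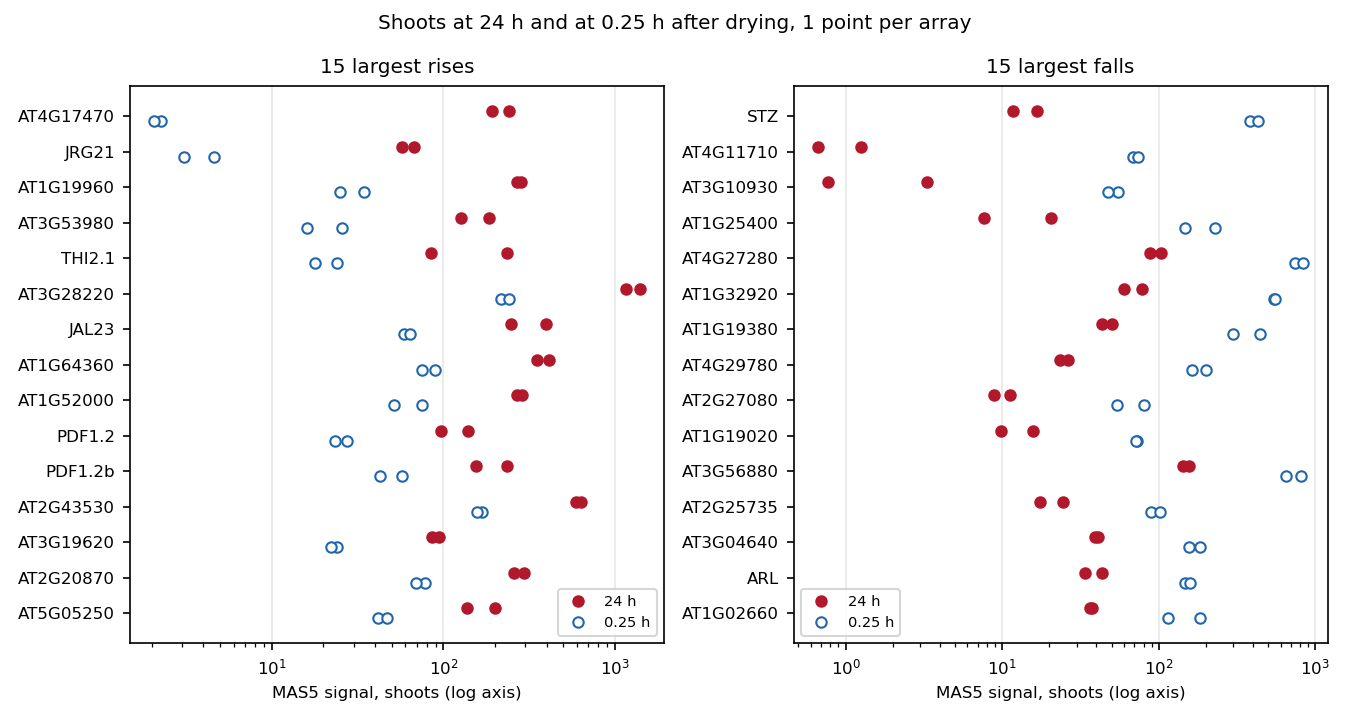
MAS5 signals on a log axis for the 15 largest rises (left) and the 15 largest falls (right) in shoots, with filled points for the 2 arrays of 24 h and open points for the 2 arrays of 0.25 h. STZ is at 11.7 and 16.6 at 24 h, against 384 and 433 at 0.25 h, and AT4G17470 is at 242 and 192 at 24 h, against 2.26 and 2.06 at 0.25 h.

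The largest fall among these named genes was that of STZ, the zinc finger repressor also known as ZAT10, which many stresses induce within minutes. Its signal was 11.7 and 16.6 on the 24 h arrays, against 384 and 433 on the 0.25 h arrays, a log2 change of -4.69 ± 0.35 (SE) with an adjusted p of 1.5e-07. All 24 h values lie far below both 0.25 h values. The signal was still 361 and 524 at 0.5 h and 549 and 291 at 1 h, was 14.3 and 19.6 at 3 h, and was 28.0 and 54.9 at 12 h. The drop therefore lay between 1 h and 3 h, and the 24 h level was no higher than the level from 3 h on.

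STZ belongs to a list of early stress transcription factors of which 5 were measured, and 3 of these fell and none rose, with a median log2 change of -1.49. Over all genes 5.04% were called lower and 4.67% higher. The pathogen- and stress-responsive factor WRKY22 had 20.6 and 17.8 at 24 h, against 59.2 and 64.3 at 0.25 h (log2 -1.59 ± 0.38, adjusted p = 0.011). WRKY53, a regulator of leaf senescence, had 9.15 and 16.2 at 24 h, against 37.2 and 38.8 at 0.25 h (log2 -1.49 ± 0.34, adjusted p = 0.0080). Both pairs are clear of each other. ORA47, an AP2/ERF factor of jasmonate synthesis, had a log2 change of -1.45 that did not pass the test (adjusted p = 0.099), and its mean signal was higher still at 0.5 h and 1 h, at 479 and 523. WRKY6 differed by 0.41 without a call. The WRKY53 call was lost without 24 h replicate 1 (adjusted p = 0.090) and its change shrank to -0.99 with a larger pseudocount, 13.4 in place of the 1.93 added to each signal before log2. The WRKY22 call was lost without either 0.25 h array (0.057 and 0.066) or without 24 h replicate 2 (0.098), and both were lost in a fit of the 14 shoot arrays alone (0.051 for WRKY53 and 0.064 for WRKY22).

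The rapid stress genes, a list of loci known for quick and transient induction, had 4 of 10 measured members lower at 24 h and none higher. Their median log2 change was -1.26, and 5.04% of all genes were called lower. AT3G10930 had 3.33 and 0.774 at 24 h, against 55.1 and 47.3 at 0.25 h (log2 -3.81 ± 0.42, adjusted p = 1.8e-05). The 24 h values lie at the bottom of the signal range, and with the larger pseudocount the change was -2.06. AT4G29780 had 23.4 and 26.2 at 24 h, against 164 and 200 at 0.25 h (log2 -2.78 ± 0.30, adjusted p = 1.2e-05). AT1G66090 fell by 1.85 on the log2 scale and AT1G05575 by 1.68. Of these 4, AT1G05575 alone lost its call when an array was left out, without 0.25 h replicate 1 (adjusted p = 0.054), and its change was -1.03 with the larger pseudocount. The other members ranged from -1.58 for AT4G27657 to 0.85 for AT5G57510 without a call. This list, like the others, was written with results of these data known, so its direction is not independent evidence.

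Calcium sensors followed in part. Of 8 calmodulin-like proteins measured, which bind calcium and relay its rise, CML38 and CML23 fell, none rose, and the median log2 change was -0.17. Over all genes 5.04% were called lower. CML38 had 4.03 and 0.664 at 24 h, against 51.6 and 26.3 at 0.25 h (log2 -3.30 ± 0.73, adjusted p = 0.00675), and CML23 had 8.55 and 8.61, against 47.3 and 45.9 (log2 -2.21 ± 0.57, adjusted p = 0.018). In both genes the 24 h pair lies below the 0.25 h pair. Both calls were fragile: that of CML38 was lost without 0.25 h replicate 1 (0.079), without 24 h replicate 2 (0.11) and with the larger pseudocount (-1.70, adjusted p = 0.078), and that of CML23 without any one of the 4 arrays (0.069 to 0.10) and in the fit of the 14 shoot arrays (0.064), with a change of -1.45 under the larger pseudocount. None of 8 plant U-box ubiquitin ligases and none of 4 ATL RING ligases was called, with PUB22 at -0.68 and ATL8 at -0.62.

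The other large falls had mostly higher signals and firmer calls. AT4G27280 had 88.3 and 103 at 24 h, against 745 and 839 at 0.25 h (log2 -3.02 ± 0.34, adjusted p = 2.1e-05). AT1G32920 had 78.6 and 59.6, against 541 and 554 (log2 -2.96 ± 0.22, adjusted p = 1.5e-07). AT3G56880 had 143 and 157, against 650 and 813 (log2 -2.27 ± 0.19, adjusted p = 5.6e-07). These 3 genes are separated between the times by several times their spread. Within the group AT1G25400 (-3.66), AT1G19380 (-2.90), AT2G27080 (-2.51), AT2G25735 (-2.11) and AT3G04640 (-2.03) also fell whichever array was left out. ARL, an ARGOS-like gene that promotes organ growth by cell expansion, had 33.7 and 43.4 at 24 h, against 147 and 158 at 0.25 h (log2 -1.94 ± 0.31, adjusted p = 5.8e-04). Unlike STZ it declined in steps, with mean signals of 94.1 at 0.5 h, 90.8 at 1 h, 81.0 at 3 h, 52.6 at 6 h and 38.7 at 12 h.

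Less certain were the remaining 3 of the 15 falls. AT4G11710 had 1.26 and 0.667 at 24 h, against 68.1 and 73.6 at 0.25 h (log2 -4.66 ± 1.09, adjusted p = 0.0099), and its probe set can share signal with other genes. At 0.5 h its arrays read 51.8 and 1.80 and at 1 h 1.18 and 97.2, so it split the arrays that go against their labels. Its call was lost without 0.25 h replicate 1 (0.058), without 0.25 h replicate 2 (0.055), without 24 h replicate 2 (0.082) and in the fit of the 14 shoot arrays (0.067), and its change was -2.55 with the larger pseudocount. AT1G19020 (-2.36, adjusted p = 0.016) lost its call without any one of the 4 arrays (0.061 to 0.10) and in the 14-array fit (0.089), and AT1G02660 (-1.92, adjusted p = 0.0037) lost it without 0.25 h replicate 2 (0.052).

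Further genes of signalling and membranes fell, of which TET8 and SRC2 were named after their values were seen. TET8, a tetraspanin found on extracellular vesicles, had 176 and 195 at 24 h, against 669 and 639 at 0.25 h (log2 -1.81 ± 0.19, adjusted p = 1.2e-05). BIK1, a receptor-like cytoplasmic kinase of immune signalling, had 31.2 and 31.6, against 70.4 and 60.3 (log2 -1.01 ± 0.20, adjusted p = 0.0030). SRC2, a C2-domain protein, had 480 and 524, against 902 and 1195 (log2 -1.05 ± 0.19, adjusted p = 0.0014). All 3 were called whichever of the 4 arrays was left out. BIK1 was the one call among 5 measured receptor-like kinases and receptor-like proteins, and TET8 was one of a pair of calls among 11 tetraspanins, the other being TET3, which rose by 0.85 and lost its call without any one array (0.087 to 0.14) and in the 14-array fit (0.084).

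Among the named rises the largest was AT4G17470, known here only by its locus code. It had 242 and 192 at 24 h, against 2.26 and 2.06 at 0.25 h, a log2 change of 5.73 ± 0.45 with an adjusted p of 2.1e-07. The 0.25 h values are near the 10th percentile of all signals, 1.93, so the size of the change depends on the low end of the scale. Its signal peaked at 3 h, at 927 and 1082, was 914 and 797 at 6 h and 463 and 303 at 12 h, and the 24 h arrays still stood far above the 0.25 h arrays.

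Most measured jasmonate-linked genes were higher at 24 h. Of 6 measured members of the jasmonate list 5 were called higher and none lower, with a median log2 change of 2.01. Over all genes 4.67% were called higher. This list too was written with results of these data known, so its direction is not independent evidence. JRG21, a jasmonate-regulated dioxygenase, had 67.8 and 57.4 at 24 h, against 4.63 and 3.08 at 0.25 h (log2 3.49 ± 0.54, adjusted p = 4.5e-04). THI2.1, a thionin, which is a small antimicrobial protein induced by jasmonate, had 236 and 84.6, against 17.9 and 24.0 (log2 2.66 ± 0.43, adjusted p = 6.65e-04). Its 24 h arrays differ from each other by nearly as much as the lower one differs from the 0.25 h arrays on the log scale, but both lie above them. PDF1.2, the plant defensin used as a marker of jasmonate and ethylene responses, had 96.4 and 139, against 23.4 and 27.5 (log2 2.11 ± 0.48, adjusted p = 0.0077).

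The remaining jasmonate members were weaker. PDF1.2b, a near copy of PDF1.2 whose probe set can also detect its relatives, had 156 and 236 at 24 h, against 57.7 and 42.9 at 0.25 h (log2 1.91 ± 0.58, adjusted p = 0.041), and its signal is not independent of PDF1.2. MYC3, a bHLH factor of jasmonate signalling, rose by only 0.32, and OPCL1, a CoA ligase of jasmonate synthesis, had a change of 0.71 without a call. Calls for JRG21 and THI2.1 held without any one array. JRG21 changed by 2.14 with the larger pseudocount. PDF1.2 lost its call without 0.25 h replicate 1 (0.063) or 24 h replicate 2 (0.097). PDF1.2b and MYC3 lost theirs without any one array (0.070 to 0.26 and 0.074 to 0.28) and in 5 and 7 of the other 11 settings. The count of jasmonate members called was 2 or 3 when an array was left out, and 3 with an untrended variance prior and in the 14-array fit.

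Other small secreted proteins showed both directions. Of 19 measured signalling peptides and defensins 4 rose and 2 fell, with a median log2 change of 0.20. Beside the PDF1.2 pair, the defensin PDF1.4 had 75.1 and 74.9 at 24 h, against 25.3 and 22.9 at 0.25 h (log2 1.56 ± 0.47, adjusted p = 0.037), and the peptide CLE26 had 49.2 and 48.2, against 25.1 and 18.7 (log2 1.1 ± 0.29, adjusted p = 0.019). RALFL22 and RALFL33, of the alkalinization factor family, fell by 0.80 and 0.48. PDF1.4 and RALFL22 lost their calls without any one array (0.12 to 0.16 and 0.056 to 0.21), CLE26 lost it without all but 0.25 h replicate 1 (0.075 to 0.15) and RALFL33 without all but that same array (0.15 to 0.44). In the 11 other settings RALFL33 lost its call in 6, and PDF1.4 and RALFL22 in 1 each.

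The jacalin-related lectins, carbohydrate-binding proteins that accumulate in defence, were added after values were seen: 2 of 4 measured members rose, with a median of 1.04. Over all genes 4.67% were called higher and the median was 0.07. In all 4 both 24 h arrays lay above both 0.25 h arrays, against 33% of all genes. JAL23 had 394 and 247 at 24 h, against 59.3 and 63.7 at 0.25 h (log2 2.31 ± 0.32, adjusted p = 1.8e-04), and was called without any one array. JAL33 had 240 and 155, against 90.6 and 75.8 (log2 1.2 ± 0.31, adjusted p = 0.016), and lost its call without 0.25 h replicate 1 (0.053), 0.25 h replicate 2 (0.11) or 24 h replicate 1 (0.15). The lectin EULS3, also named after its values were seen, rose by 1.2 ± 0.21, to 68.2 and 72.1 at 24 h, against 29.3 and 29.5 at 0.25 h (adjusted p = 0.0011).

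Of the other large rises AT3G28220 was the brightest. It had 1391 and 1165 at 24 h, against 217 and 241 at 0.25 h (log2 2.47 ± 0.25, adjusted p = 6.6e-06), after a peak of 3063 and 3375 at 3 h. AT1G19960 had 269 and 283 at 24 h, against 25.1 and 34.4 (log2 3.15 ± 0.45, adjusted p = 2.2e-04). AT3G53980 had 184 and 126, against 16.0 and 25.5 (log2 2.80 ± 0.30, adjusted p = 1.3e-05). These 3, and AT5G05250 (1.87), were called in every fit run, while AT1G64360 (2.19) and AT3G19620 (1.88) lost their calls only with no pseudocount (0.052 and 0.13). AT1G52000 (2.1), AT2G43530 (1.90) and AT2G20870 (1.87) lost theirs without any one of the 4 arrays, with adjusted p between 0.060 and 0.14, and the first pair also with no pseudocount (0.26 and 0.056) and AT2G20870 in the 14-array fit (0.099).

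**Figure D2:**
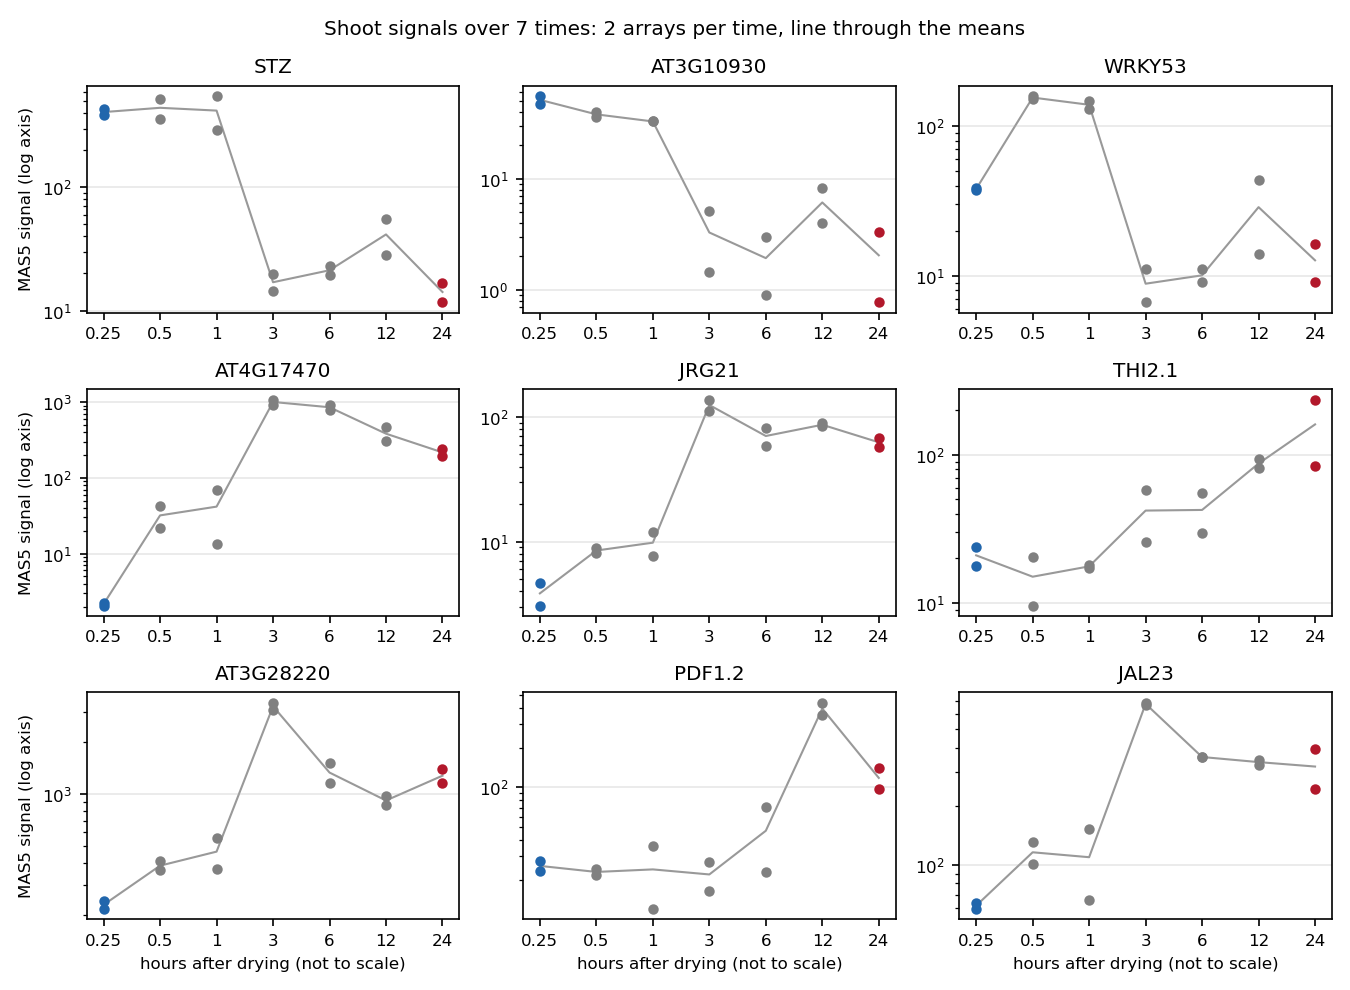
MAS5 shoot signals on a log axis at the 7 labelled times for 9 genes, with 1 point per array, blue at 0.25 h, red at 24 h and grey between, and a line through the means of the 2 arrays. STZ, AT3G10930 and WRKY53 are high up to 1 h and low from 3 h on, AT4G17470, JRG21, AT3G28220 and JAL23 are highest at 3 h, PDF1.2 at 12 h and THI2.1 at 24 h.

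The shoot signals between the end points place each change in time. Among the 15 falls the highest mean stood at 0.25 h in 6 and at 0.5 h in 9, and in all 15 the mean log2 signal of 3, 6 and 12 h lay below that of 0.25 h. In 11 of these it stayed above the 24 h value. Among the 15 rises the highest mean stood at 3 h in 6, at 12 h in 4 and at 24 h in 5. PDF1.2 was at 352 and 436 at 12 h and PDF1.2b at 886 and 855, both above their 24 h values, whereas THI2.1 rose stepwise, with means of 42.0 at 3 h, 42.4 at 6 h and 87.2 at 12 h.

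Over all called probe sets the same view gave mixed courses. Of the 980 that rose, 474 (48.4%) had a mean log2 signal over 3 to 12 h above that of 24 h, 445 (45.4%) lay between the end points, and 61 (6.22%) lay below the 0.25 h level. Their highest mean fell at 24 h in 307, at 6 h in 271, at 3 h in 225 and at 12 h in 137. Of the 1025 that fell, 561 (54.7%) were lower over 3 to 12 h than at 24 h, 405 (39.5%) lay between and 59 (5.76%) lay above the 0.25 h level. The lowest mean fell at 6 h in 417, at 3 h in 262 and at 24 h in 239. The times from 3 h to 12 h differ in clock time from the end points, so these levels carry the time of day as well and are given without a test.

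**Figure D3:**
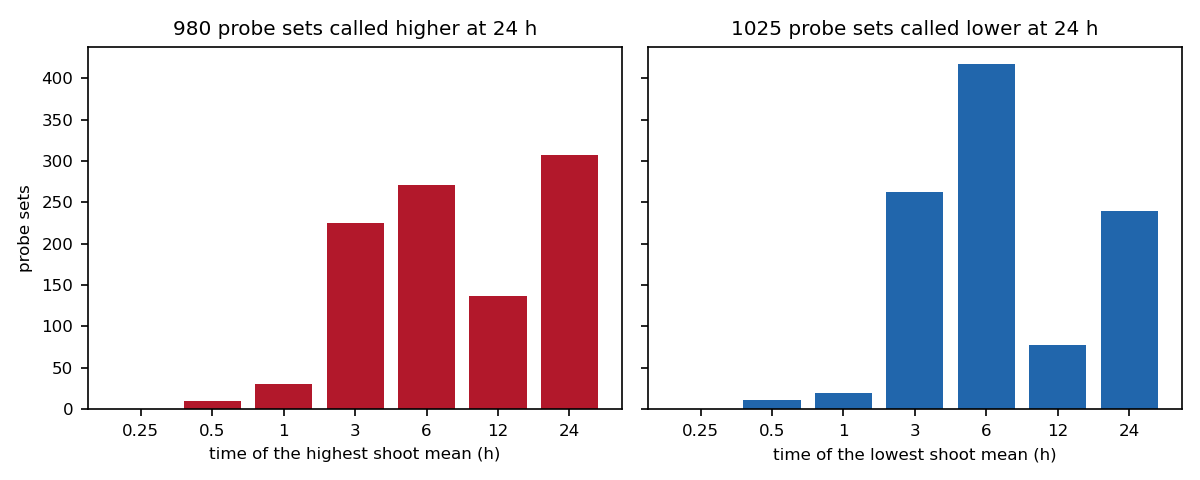
Bars from 0 count the probe sets by the time at which the mean shoot signal was highest, for the 980 called higher at 24 h (left), or lowest, for the 1025 called lower (right). For 307 of the rises 24 h itself was highest, and for 417 of the falls 6 h was lowest.

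Classical dehydration transcripts did not pass the test. Of 5 measured cold- and dehydration-responsive genes none was called, with COR15A, a chloroplast protectant, at 1.19, COR15B at 0.87, the dehydrin LTI30 at 0.50, COR27 at 0.16 and the dehydrin COR47 at -0.27 on the log2 scale. Of 7 late embryogenesis abundant proteins, a list that shares 4 of these genes, none was called either, with a median of 0.50 against 0.07 over all genes. In the osmolyte list 2 of 4 members rose and none fell, against 4.67% of all genes called higher. ALDH7B4, a turgor-responsive aldehyde dehydrogenase, had 286 and 306 at 24 h, against 111 and 128 at 0.25 h (log2 1.3 ± 0.19, adjusted p = 3.1e-04), and was called in every fit. ALDH10A8, a betaine aldehyde dehydrogenase, rose by 0.41 and lost its call without every array but 0.25 h replicate 2 (0.063 to 0.25) and in the fits of 14 (0.062) and of 4 arrays (0.070) and with an untrended prior (0.054). HIS1-3, a drought-inducible linker histone, had 55.1 and 47.8 at 24 h, against 18.5 and 13.4 at 0.25 h (log2 1.59 ± 0.49, adjusted p = 0.0435), a call lost without any one array (0.10 to 0.21) and in 4 of 11 other settings (largest 0.063). No member of the lists for abscisic acid, CBF and DREB factors or aquaporins had a tested probe set of its own, so those groups were not analysed here.

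Genes of carbon supply changed by single members. SWEET13, a sucrose exporter of leaf phloem, had 78.6 and 80.4 at 24 h, against 26.7 and 22 at 0.25 h (log2 1.64 ± 0.25, adjusted p = 4.3e-04), and was called in every fit. SWEET2, a vacuolar sugar transporter, had 206 and 194, against 395 and 450 (log2 -1.07 ± 0.32, adjusted p = 0.035), and lost its call without any one array (0.096 to 0.18) and in 2 of 11 other settings. They were the only calls among 20 sugar transporters, whose median change was 0.22. In the starch and sucrose list 1 of 6 members rose, DPE1, an enzyme of starch breakdown, with 56.6 and 56.1 at 24 h, against 36.3 and 36.5 at 0.25 h (log2 0.60 ± 0.11, adjusted p = 0.0019), called in every fit but that of the 4 arrays alone (0.067). Of 10 starvation genes 2 rose and 1 fell: MCCB of leucine breakdown by 0.50, D2HGDH by 0.57 and EXO by -0.64, and no member was called without 24 h replicate 2 or without 0.25 h replicate 1. In the 11 other settings MCCB lost its call in 5, and D2HGDH and EXO in 1 each. PPDK, pyruvate orthophosphate dikinase, rose by 1.07 to 560 and 678, against 309 and 277 (adjusted p = 0.0054), but not without 24 h replicate 2 (0.082).

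Recycling genes outside those lists were looked at after their values were seen. Of 11 autophagy ATG genes 2 rose, ATG3 by 0.46 and APG8H by 0.42, and the median was 0.42. Over all genes 4.67% were called higher and the median was 0.07. In 9 of the 11 both 24 h arrays lay above both 0.25 h arrays, against 33% of all genes. Of 4 vacuolar processing enzymes, proteases of the vacuole, 2 rose, GAMMA-VPE by 0.64 and BETA-VPE by 0.78. None of these 4 calls held without every single array, the largest adjusted p being 0.085, 0.23, 0.15 and 0.25 in that order, and in the 11 other settings APG8H and BETA-VPE lost it in 3 each and ATG3 in 1. AIM1, a multifunctional enzyme of fatty acid beta-oxidation, had 427 and 515 at 24 h, against 208 and 284 at 0.25 h (log2 0.94 ± 0.14, adjusted p = 2.6e-04), and MSRB5, a methionine sulfoxide reductase, had 462 and 404, against 217 and 121 (log2 1.4 ± 0.25, adjusted p = 0.0015). Both were called in every fit.

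Growth and cell wall lists moved little as groups. Of 24 xyloglucan and expansin genes 2 rose and 2 fell, with a median of -0.13. EXPB3, a beta-expansin, had 212 and 190 at 24 h, against 90.7 and 73.6 at 0.25 h (log2 1.28 ± 0.35), and EXLB1 had 197 and 180, against 109 and 85.2 (log2 0.95 ± 0.23). EXLA1 and EXLA3, expansin-like A genes, fell by 1.28 and 1.32. The largest changes in this list were not called, at -2.38 for XTH18 and -1.71 for XTH19. None of the 4 calls held without every single array, none was left without 24 h replicate 2 or without 0.25 h replicate 2, and the fit that omitted the 4 mismatched shoot arrays called 10 members. EXLA1 also lost its call in the 14-array fit (0.11) and EXLA3 in 7 of 11 other settings, with a change of -0.60 under the larger pseudocount. Of 36 cellulose, xylan acetylation and pectin genes 3 rose and none fell (TBL19 by 1.49, PME61 by 0.76 and TBL38 by 0.56), and TBL19 changed by 0.77 with the larger pseudocount. PME61 lost its call without any one array and in 4 of 11 other settings, TBL38 in 6 of 11. None was called without 24 h replicate 2 or without 0.25 h replicate 1.

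Nuclear RNA polymerase subunits were looked at after their values were seen. Of 11 nuclear RNA polymerase subunits 3 fell and none rose, with a median of -0.22, against 5.04% of all genes called lower. NRPA1, the largest subunit of RNA polymerase I, which makes ribosomal RNA, had 39.0 and 32.5 at 24 h, against 79.5 and 74.3 at 0.25 h (log2 -1.07 ± 0.16, adjusted p = 3.3e-04), and was called in every fit. NRPB12 fell by 0.59 and lost its call without 24 h replicate 2 (0.081). NRPB6B fell by 0.44 and lost its call without any array but 24 h replicate 1 (0.14 to 0.37) and in 4 of 11 other settings. The other 8 subunits were not called. A list written for cytosolic ribosomal proteins matched 1 measured gene, AT1G77750, which had -0.34 without a call (adjusted p = 0.29). Whether its protein is cytosolic was not checked, so the value is not read for that class. Single genes also named after their values were seen were PGY1, YAO, MAP1C and HYH. PGY1, a ribosomal protein of the large subunit, had 731 and 700, against 1301 and 1136 (log2 -0.76 ± 0.11, adjusted p = 2.4e-04), also called in every fit. YAO, a nucleolar protein of ribosomal RNA processing, fell by 0.77 (adjusted p = 0.0045), but not without 24 h replicate 2 (0.097). MAP1C, a methionine aminopeptidase, had 83.1 and 71.0 at 24 h, against 170 and 140 at 0.25 h (log2 -0.99 ± 0.18, adjusted p = 0.0016), and HYH, a bZIP factor of light signalling, had 76.8 and 71.2, against 176 and 130 (log2 -1.01 ± 0.23, adjusted p = 0.0088). The HYH call was lost without 0.25 h replicate 1 (0.11) or 24 h replicate 2 (0.083).

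Photosynthesis transcripts were close to their 0.25 h level in this matched comparison. Of 13 nuclear photosynthesis genes 1 rose and none fell, the median log2 change was 0.09, and RCA, the Rubisco activase, had 5838 and 6313 at 24 h, against 5646 and 6113 at 0.25 h. The call was PGRL1B, of cyclic electron flow, with 202 and 189, against 113 and 100 (log2 0.86 ± 0.19, adjusted p = 0.0065), lost without 0.25 h replicate 2 (0.057). Of 69 plastid-encoded transcripts none rose and 2 fell, rps15 by 0.69 and rps16 by 0.62, with a median of 0.01, and both calls were fragile: rps15 lost its call without any one array (0.063 to 0.29) and in 5 of 11 other settings, and rps16 without any but 0.25 h replicate 2 (0.13 to 0.33) and in 6 of 11. Of 9 genes of chlorophyll and carotenoid synthesis PORB rose by 0.85, and GSA1 and HEMB1, early enzymes of the tetrapyrrole pathway, fell by 0.38 and 0.36. No member of this list held its call without every single array, and none was called under quantile normalization. In the 11 other settings PORB lost its call in 6, GSA1 in 4 and HEMB1 in 3. None of 3 genes in the clock list was called, with GI at 0.15, COR27 at 0.16 and AT4G33980 at 0.27. CCL, a transcript known to follow the clock, was higher at 1085 and 1197, against 330 and 376 (log2 1.69 ± 0.33, adjusted p = 0.0027), with means of 2566 at 3 h, 4496 at 6 h and 2996 at 12 h.

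Redox and detoxification families had median log2 changes between 0.24 for cytochrome P450s and 0.50 for beta-glucosidases, against 0.07 over all genes. Of 19 peroxide and antioxidant enzymes 2 rose and 1 fell. The peroxidase PRXR1 had 3444 and 4004 at 24 h, against 1839 and 2068 at 0.25 h (log2 0.93 ± 0.11, adjusted p = 3.3e-05), and the glutaredoxin GRXC2 had 905 and 922, against 604 and 618 (log2 0.58 ± 0.10, adjusted p = 0.0015). Both were called in every fit. SAPX, the stromal ascorbate peroxidase, had 119 and 112, against 274 and 186 (log2 -0.95 ± 0.20, adjusted p = 0.0040), lost without 0.25 h replicate 1 (0.083). Of 41 UDP-glycosyltransferases 4 rose and 1 fell, and the 3 with the largest changes, UGT71C2 (-1.45), UGT76B1 (1.34) and UGT73B5 (1.26), had signals under 15 on all 4 arrays and changed by -0.64, 0.32 and 0.48 with the larger pseudocount. Without 24 h replicate 2 or without 0.25 h replicate 1 none of the 5 was called, and 1 was in the 14-array fit. Of 15 beta-glucosidases BGLU46 and BGLU44 were called, with rises of 1.25 and 0.80, against 4.67% of all genes called higher. In 9 of the 15 both 24 h arrays lay above both 0.25 h arrays, against 33% of all genes. BGLU46 changed by 0.48 with the larger pseudocount (adjusted p = 0.29). BGLU46 lost its call without 0.25 h replicate 1 (0.27) or 24 h replicate 1 (0.28) and in 4 of 11 other settings, and BGLU44 without 0.25 h replicate 2 (0.057) or 24 h replicate 2 (0.065). Single members rose among 12 glutathione transferases (GSTL3, 0.60, called in every fit), 16 cytochrome P450s (CYP71B28, 0.68) and 5 phosphate and iron genes (BHLH101, of the iron deficiency response, 2.02, lost without any one array, 0.062 to 0.14, and with no pseudocount, 0.17, and at 1.33 with the larger pseudocount). CYP71B28 was not called without 0.25 h replicate 2 (0.30) or 24 h replicate 2 (0.19), nor in the fits of 14 (0.051) and 4 arrays (0.071). In the sulfur and glucosinolate list BCAT4, of methionine-derived glucosinolates, rose by 0.85 and UGT74B1 by 0.55 among 6 members, of which BCAT4 lost its call without 24 h replicate 2 (0.068) and UGT74B1 without any one array (0.072 to 0.23) and in 3 of 11 other settings.

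No call was made among 12 auxin genes, 12 genes of nitrogen uptake and assimilation, 7 flavonoid and phenylpropanoid genes, 4 unfolded protein response genes, 3 heat shock genes, 3 cuticle genes or 2 genes each of ethylene and cytokinin. Among these CHI had the largest change at 2.48, and the auxin-conjugating GH3.3 had -1.26, both without passing the test. CHI was placed in the flavonoid list by its symbol alone, and which enzyme it encodes was not checked. Across all 458 genes of the 51 lists, of which 5 lists had no measured member, 36 were called higher and 23 lower, 12.9% in all, against 9.71% of all genes with a name. Most of these 59 calls were lost when some single array was left out, as were most calls over all probe sets. The 15 largest rises and 15 largest falls kept theirs more often, but they had been chosen by the size of their change.

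**Figure D4:**
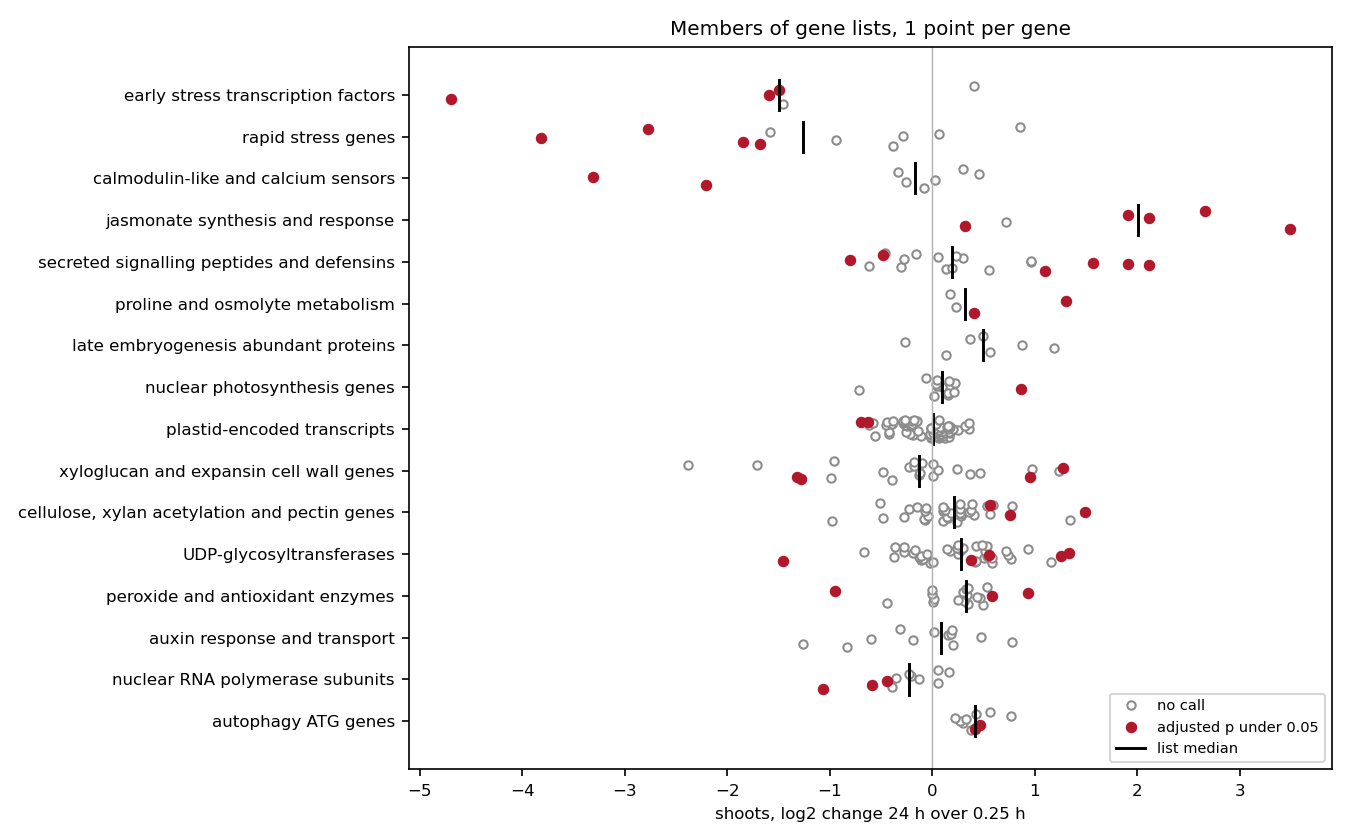
Log2 change in shoots, 24 h over 0.25 h, with 1 point per gene for 16 gene lists, filled red where the adjusted p was under 0.05, and a black bar at each list's median. Early and rapid stress lists extend to -4.69 and -3.81 on the left, the jasmonate list has its median at 2.01, and photosynthesis and plastid-encoded transcripts cluster around 0.

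The same times in roots, on arrays not shared with the shoot comparison, gave fewer calls. In roots 91 probe sets rose (0.5%) and 311 fell (1.71%), 402 in all (2.21%). The change differed between shoots and roots for 587 (3.23%), with 257 higher (1.41%) and 330 lower (1.81%) in shoots relative to roots. Counted once per gene, 2.2% were called in roots, 0.459% higher and 1.74% lower, and 2.98% differed, 1.27% higher and 1.72% lower in shoots. Of the shoot falls, 114 were also called lower in roots, which is 11.1% of the shoot falls and 36.7% of the root falls. Of the shoot rises, 22 were also called higher in roots, 2.24% of the shoot rises and 24.2% of the root rises. Among the 15 largest shoot falls all had a negative root change and 11 were called lower in roots, while among the 15 largest rises JRG21 alone was called higher in roots and 8 differed between the tissues. Of the 10 rapid stress genes 8 were called lower in roots, with a median log2 change of -3.53 there, against -1.26 in shoots. AT3G10930 (-3.10) and AT1G66090 (-0.42) had smaller falls in roots than in shoots. Of the 8 calmodulin-like proteins 4 were called lower in roots, with a median of -1.29.

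STZ fell in both tissues, with 112 and 81.9 at 24 h, against 1463 and 1408 at 0.25 h in roots (log2 -3.88 ± 0.35), and no difference was called (-0.81 ± 0.49, adjusted p = 0.43). AT4G29780 fell further in roots, with 33.5 and 35.7, against 926 and 891 (log2 -4.64 ± 0.30), and the shoot change exceeded the root change by 1.86 ± 0.42 (adjusted p = 0.021). JRG21 had 38.7 and 11.4 at 24 h, against 0.873 and 1.4 at 0.25 h in roots (log2 2.93 ± 0.54, adjusted p = 0.0035). In contrast the AT4G17470 signal in roots was 0.628 and 0.678 at 24 h, against 0.951 and 0.953 at 0.25 h, and THI2.1 had 7.78 and 7.74, against 7.19 and 8.66. Both differed between tissues, by 5.89 ± 0.63 (adjusted p = 9.2e-05) and 2.68 ± 0.61 (adjusted p = 0.022), and the THI2.1 difference was called in 3 of 8 fits that left out 1 array (largest adjusted p 0.085).

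AT1G19960 was already bright in roots, at 1021 and 1015 at 24 h, against 1089 and 986 at 0.25 h, and its shoot change exceeded the root change by 3.17 ± 0.63 (adjusted p = 0.011). AT1G73040 had 29.1 and 34.6 at 24 h, against 4.06 and 2.65 at 0.25 h in shoots, and 32.6 and 30.3, against 38.4 and 23.7 in roots, a difference of 2.63 ± 0.38 (adjusted p = 0.0017) that was 1.4 with the larger pseudocount. AT5G17350 fell in both, by 1.33 in shoots and by 3.70 in roots (difference 2.37 ± 0.28, adjusted p = 2.5e-04). On the other side AT4G15690 had 0.988 and 1.05 at 24 h, against 28.6 and 34.0 at 0.25 h in shoots (log2 -3.49 ± 0.44), while its root signals were 0.533 and 0.267 at 24 h, against 0.535 and 0.564 at 0.25 h, a level too low to show a fall. AT4G03100 had 15.6 and 5.16, against 52.1 and 44.9 in shoots, and 55.9 and 42.0, against 37.1 and 48.9 in roots (difference -2.35 ± 0.44, adjusted p = 0.0076).

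The other differences on that side lay at low signals. AT3G43430 had 3.62 and 3.37 at 24 h, against 23.3 and 31.7 at 0.25 h in shoots (difference -2.0 ± 0.37), AT4G02660 had 1.94 and 2.39, against 8.67 and 9.93 (difference -1.82 ± 0.31), and OTP81, an RNA editing factor of chloroplasts, had 7.01 and 4.19, against 20.3 and 24.9 (difference -2.10 ± 0.56, adjusted p = 0.047). With the larger pseudocount the shoot changes of AT4G15690, AT4G03100, AT3G43430, OTP81 and AT4G02660 were -1.63, -1.41, -1.27, -0.92 and -0.54. The shoot call of OTP81 was lost without 0.25 h replicate 2 (0.066) or 24 h replicate 2 (0.11).

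**Figure D5:**
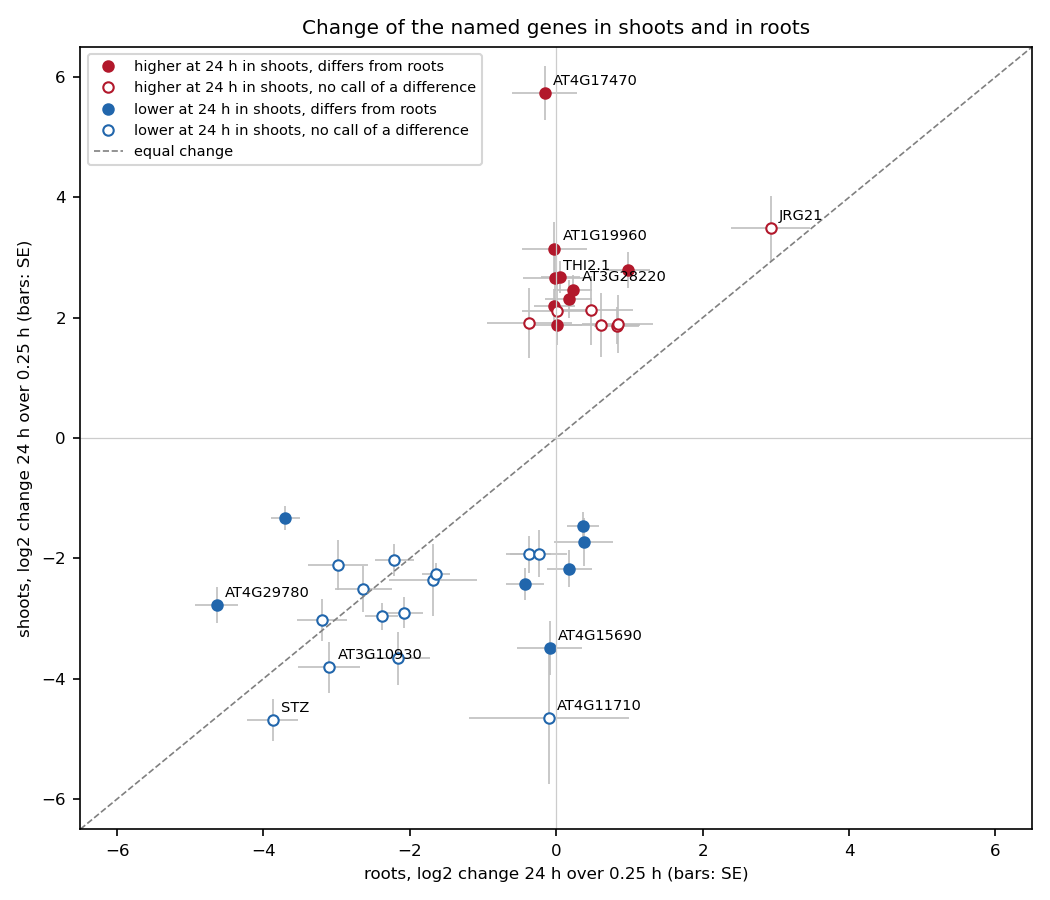
Log2 change of 24 h over 0.25 h in shoots (vertical axis) against the same in roots (horizontal axis) for the named rises, falls and genes that differ most, with bars for 1 SE and a dashed line for equal change. Filled points, such as AT4G17470 at 5.73 in shoots and -0.16 in roots, passed the test of the difference, and open points, such as STZ at -4.69 in shoots and -3.88 in roots, did not.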

How the data were processed

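Each array's group came from its label, which names tissue, time and replicate. The deposited table holds 1 linear signal intensity per probe set and array, made with MAS5 per the submitters' processing notes, with no MAS5 version stated there. Values were taken as log2(signal + 1.93). That pseudocount is the 10th percentile over the table, so fold changes of dim genes are understated. After 64 control probe sets were set aside, a probe set was tested if some group had both its arrays above their own 30th percentiles, which kept 18190 and removed 4556. All 28 arrays entered one limma fit (limma 3.58.1, R 4.3.3) of 14 group means with trended empirical Bayes variances, leaving 14 residual degrees of freedom. Tests were two-sided, with Benjamini-Hochberg adjustment over every tested probe set and a threshold of 0.05. No detection calls were used, and 2 arrays a group limit the precision. On simulated data for this comparison, with 200 of 18190 probe sets changed, 66% of 2-fold and 89% of 4-fold changes were recovered.

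In the platform annotation 13513 probe sets have 1 gene, 503 have several and 8730 have none. TAIR10.1, from which only symbols were taken, held 13436 of them. Of several probe sets the one with the highest mean signal stood for a gene. Named genes were the 15 largest called rises and falls with arrays that do not overlap and a mean of at least 50 in the higher group, called list members, and the 5 largest tissue differences each way. The members and lists were chosen with earlier results of these data known, and 8 families and the genes marked so in the text were chosen after values were seen. From the lists 13 matches of symbol to another gene were dropped. Alternatives changed 1 choice at a time: pseudocount (none, or the 30th percentile, 13.4), filter, quantile normalization, variance prior, array weights, replicate block, which arrays entered the fit, and the omission of single arrays. A group with 1 array left is assumed to vary like the others. The planned count of promoter motifs was not run, since no promoter sequence was used here.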

Additional observations from a re-analysis of the deposited data

Results flagged for a closer look

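A test of the difference between shoots and roots in their change at 24 h against 0.25 h singled out 587 of the tested probe sets. Other genes named above were also called in it. Among them were CCL (1.84), TBL19 (1.82), ALDH7B4 (1.21), PRXR1 (0.95), EXO (0.94), AIM1, DPE1 and MYC3 on the higher side. On the lower side were AT1G66090 (-1.43), SAPX (-1.27), MAP1C (-1.10), NRPA1 (-1.05), PGY1 (-0.86) and NRPB12. The rest of this section covers the 16 called genes among the 15 largest rises, the 15 largest falls and the 5 largest differences each way. Shoots exceeded roots in AT4G17470 (log2 difference 5.89), AT1G19960 (3.17), THI2.1 (2.68), AT1G73040 (2.63), AT5G17350 (2.37), AT3G28220 (2.23), AT1G64360 (2.22), JAL23 (2.14), AT3G19620 (1.87), AT4G29780 (1.86) and AT3G53980 (1.82). AT5G17350 and AT4G29780 fell in both tissues, less in shoots. Shoots fell below roots in AT4G15690 (-3.40), AT4G03100 (-2.35), OTP81 (-2.10), AT3G43430 (-2.0) and AT4G02660 (-1.82).
When each of the 8 arrays was left out in turn, the difference was called in 0 fits for AT3G19620, 1 for OTP81, 2 for AT4G29780, 3 each for AT3G53980 and THI2.1, 5 for JAL23 and 6 for AT1G19960, and in all 8 for the other 9 genes. With no pseudocount the difference was not called for AT4G15690 (adjusted p = 0.062), AT3G28220 (0.13), AT1G64360 (0.23), AT3G19620 (0.43) or OTP81 (0.097). OTP81 was called in 3 of 8 other settings, being lost also with no filter (0.062), no variance trend (0.054), quantile normalization (0.053) and the replicate block (0.054), which also ended the AT3G19620 call (0.052). The difference was, with the larger pseudocount, not called for AT3G53980 (0.056) or AT3G43430 (0.091). Root signals of AT4G17470, AT4G15690, AT1G64360, AT3G19620 and AT3G28220 were under 3 on all 4 arrays. The part of dim root signals in these differences was not tested.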

How the results depend on the processing

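The 2005 shoot calls (980 higher, 1025 lower) became 1327 in the fit of the 14 shoot arrays alone, with 673 higher and 654 lower, and between 654 and 1557 when 1 array was left out (321 to 602 higher, 333 to 966 lower). The 402 root calls became 758 with array weights, 653 when the 4 mismatched shoot arrays were omitted, and 211 to 341 with an array left out. The 587 calls of the difference became 917 with array weights, 1066 when those 4 were omitted, and 159 to 715 with an array left out. The 59 called list members became 20 to 38. No shoot call turned its sign under any alternative run, and the other alternatives kept the shoot counts within 1.5 times. Similar counts did not mean the same probe sets. The fit of the 4 arrays alone made 1553 calls but kept only 1130 of the 2005 (56.4%). The fit of the 14 shoot arrays kept 1186 (59.2%). Quantile normalization gave 715 higher and 1044 lower, 40.6% higher against 48.9%. The cause of these shifts was not tested. The labels do not say whether replicate numbers pair the samples. Deviations of same-numbered arrays at 24 h and 0.25 h correlated at -0.02 in shoots and -0.09 in roots. Values near 0 from 1 pair of times show no pairing but cannot exclude it. The replicate block gave 877 higher and 960 lower and kept 1778 of the 2005 calls. With 2 arrays a group and no detection calls, changes at signals near the low end are the least certain.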
